A study of Mus musculus with 6 samples.

Results

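The cytosolic ribosomal protein genes were followed in liver endothelial cells (ECs) of young and aged mice. They were the rows of the deposited count table whose symbol was Rpl or Rps with a number, with or without a final a, l or x, together with Rplp0, Rplp1, Rplp2 and Rpsa. This rule took 81 of 24421 gene symbols. Of these, 43 encode proteins of the large subunit other than the stalk, 30 encode small subunit proteins, 3 encode the stalk of the large subunit, and 5 (Rpl3l, Rpl10l, Rpl39l, Rps27l and Rps4l) are additional gene copies. The rule left out a few ribosomal genes with other names, such as Fau, which is described further on. RNA-seq had been performed on CD31+CD45- cells sorted by FACS from livers of wild-type C57BL/6J mice. Young mice were 10 weeks old (3 libraries, called young 1, 2 and 3), and the aged libraries came from mice of 127, 131 and 136 weeks (1 library each). The study's methods state that female mice were used, and no group carried a treatment or an altered allele. The sort defines the cells by surface proteins, so each library is an average over the sorted cells. These are called ECs here, and markers of other cell types in the libraries are given further on.

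Every cytosolic ribosome holds 1 copy of most of these proteins, bound to ribosomal RNA in a large subunit, which joins amino acids, and a small subunit, which reads the mRNA. The mRNAs of nearly all of them begin with a run of pyrimidines, the 5′ terminal oligopyrimidine (TOP) motif, through which mTORC1 and LARP1 control their translation together. Several of the proteins also act outside the ribosome: Rpl5 and Rpl11 bind Mdm2 and so connect ribosome assembly with p53. An mRNA level does not give the amount of ribosomes or of translation.

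Coding sequences of 4 members are shown, for a member beside its copy and for 2 short members. They were read from the mm9 genome with its GENCODE annotation. Rps27 lies at chr3:90016593-90017573 on the minus strand, and its copy Rps27l at chr9:66793893-66797323 on the plus strand. Both coding sequences have 255 bases, of which 194 were identical, and capitals mark the 61 that differ.
Rps27: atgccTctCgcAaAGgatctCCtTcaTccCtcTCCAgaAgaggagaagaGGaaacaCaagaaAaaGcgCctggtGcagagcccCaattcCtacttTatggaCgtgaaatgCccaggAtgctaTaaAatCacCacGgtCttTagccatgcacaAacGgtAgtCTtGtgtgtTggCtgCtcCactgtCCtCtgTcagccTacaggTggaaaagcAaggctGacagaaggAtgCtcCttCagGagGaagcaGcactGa
Rps27l: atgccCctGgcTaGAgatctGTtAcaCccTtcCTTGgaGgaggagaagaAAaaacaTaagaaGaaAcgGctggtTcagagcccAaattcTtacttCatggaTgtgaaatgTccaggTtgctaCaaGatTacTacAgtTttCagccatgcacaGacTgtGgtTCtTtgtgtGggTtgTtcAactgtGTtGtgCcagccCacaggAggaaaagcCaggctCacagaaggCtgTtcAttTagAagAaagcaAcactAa
The next 2 are among the shortest members and among those that differed most between libraries. Rpl39 lies at chrX:34622515-34625397 (minus strand) and Rpl38 at chr11:114529838-114533645 (plus strand). Capitals mark the start and stop codons, between which a 75-base read takes up much of the frame.
Rpl39: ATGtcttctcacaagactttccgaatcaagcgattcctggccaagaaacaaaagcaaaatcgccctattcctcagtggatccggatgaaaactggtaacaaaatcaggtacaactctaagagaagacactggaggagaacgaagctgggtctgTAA
Rpl38: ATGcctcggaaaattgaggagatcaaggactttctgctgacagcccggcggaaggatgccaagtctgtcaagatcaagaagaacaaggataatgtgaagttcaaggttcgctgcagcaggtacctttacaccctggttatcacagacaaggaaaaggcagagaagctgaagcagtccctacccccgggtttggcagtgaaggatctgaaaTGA

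Promoter windows are shown for 4 of the members whose promoter carries a start-site feature that the rule did not use. Most member promoters lacked this feature, and its part in the members' levels was not tested. RefSeq promoters of the GRCm38.p6 build were matched by symbol for 60 of the 81 members (72 promoters). The feature was a pyrimidine run of at least 8 bases that reached into the bases from -5 to 6 around the annotated start. Sequences were read in the direction of transcription. Such a run was present in 23 of these 72 promoters (31.9%) and in 9.72% of all 32851 promoters. The letters CCGGAAG, on either strand and anywhere from 250 bases before to 50 after the start, were present in 26 of the 72 (36.1%) and in 8.86% of all. These matches are descriptions and not binding sites, and a promoter without them is only one that lacks these letters in this window. A run could also lie wholly before the annotated start, as in Rpl4. Its presence or absence therefore does not show whether an mRNA begins with the TOP motif. Each line runs from 40 bases before to 20 bases after the start, with the pyrimidine run in capitals.
Rpl4 (chr9:64173347-64173406, plus strand): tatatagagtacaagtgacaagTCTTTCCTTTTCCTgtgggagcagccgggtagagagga
Rpl14 (chr9:120571477-120571536, plus strand): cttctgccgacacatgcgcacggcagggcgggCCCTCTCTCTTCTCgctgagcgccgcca
Rplp2 (chr7:141447611-141447670, plus strand): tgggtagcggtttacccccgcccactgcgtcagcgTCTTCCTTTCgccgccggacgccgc
Rpl38 (chr11:114668540-114668599, plus strand): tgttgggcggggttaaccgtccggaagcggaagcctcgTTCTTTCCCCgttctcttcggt

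The libraries held 23001556 to 31651817 counts, and no pair of libraries of one age was alike enough to be a single library (smallest chi-square per degree of freedom, 20.2). They fell into 2 clusters by how many counts went to Lars2 and Rn45s, symbols known to collect reads of ribosomal RNA. These genes took 4.68% to 5.53% of counts in young 1, young 2, 131 weeks and 136 weeks, and 1.29% and 0.960% in young 3 and 127 weeks. Each age therefore had 1 library with few such counts, and values within the clusters are given beside the pooled ones. In bulk RNA, fewer cells that use a gene and less of its mRNA in each cell cannot be told apart.

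The members together took 1.55%, 1.49% and 1.20% of all counts in young 1, 2 and 3, and 1.43%, 1.87% and 1.74% at 127, 131 and 136 weeks. Both libraries with few Lars2 and Rn45s counts had the lowest shares, and the 131- and 136-week libraries the highest. With counts on Lars2 and Rn45s taken out of the totals, the shares were 1.64%, 1.58% and 1.22% in young and 1.44%, 1.96% and 1.85% in aged ECs, in the same order. In FPKM, which corrects for transcript length, the members made up 4.31% to 5.63% of the sum in young and 4.94% to 6.56% in aged libraries.

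Per length, levels of the 76 members that are not copies spanned a mean FPKM of 13.4 to 1029 over the 6 libraries, with a median of 335, and 69 lay between 100 and 1000. The 5 highest were Rps29 (1029), Rpl13 (991), Rps14 (991), Rpl41 (952) and Rps18 (868). For Rps29, FPKM was 1291, 1180 and 472 in young 1, 2 and 3 and 482, 1458 and 1294 at 127, 131 and 136 weeks. Both groups thus contained 1 low library, and the ages overlapped. For Rpl13, FPKM was 894 ± 162 in young and 1088 ± 250 in aged ECs (mean ± SD, n = 3 each). The order of these 5 lay within the spread between libraries.

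The copies differed from each other in level. Rpl10l, a testis gene in its usual setting, had 0 counts in every library. There, 3 counts would have corresponded to 0.0948 to 0.130 CPM before scaling by TMM. CPM is a count relative to the total of its library, and gene levels in CPM are given after that scaling. Rpl39l and Rpl3l, the latter a muscle counterpart of Rpl3, reached at most 6 and 8 counts in a library. They were not tested. Rps27l, a p53-responsive counterpart of Rps27, was expressed like an ordinary member, at an FPKM of 222 ± 83.2 in young and 202 ± 63.2 in aged ECs (mean ± SD, n = 3 each). Rps4l stood at an FPKM of 62.5 ± 11.1 in young and 58.1 ± 12.7 in aged ECs, below its partner Rps4x at 321 ± 27.6 and 354 ± 52.0 (mean ± SD, n = 3 each).

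**Figure D1:**
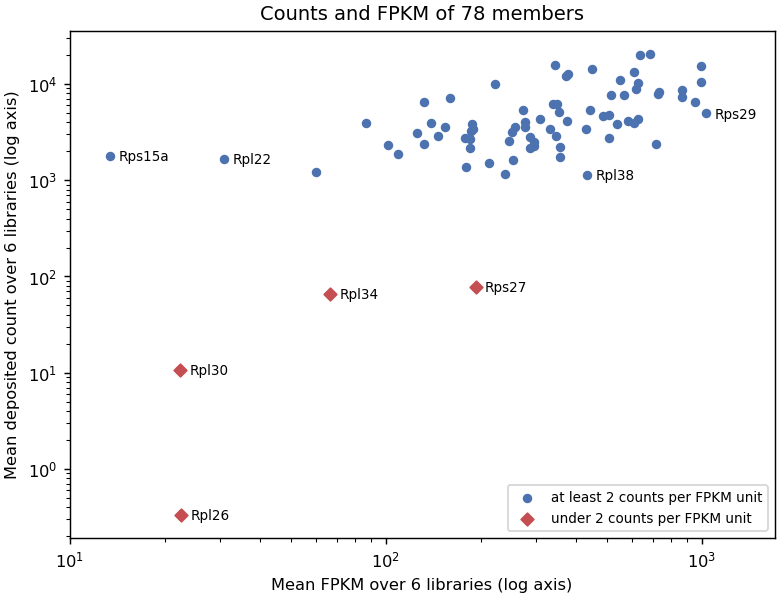
Mean deposited count against mean FPKM over the 6 libraries for the 78 members with a mean FPKM of at least 1, on log axes, with 1 point a gene. Red diamonds mark Rpl26, Rps27, Rpl30 and Rpl34, which had fewer than 2 counts for each FPKM unit, while the median member had 13.2.

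For 4 members the count table and the FPKM table did not describe the same level, as shown in the plot of counts against FPKM. Rpl26 had 0 to 2 counts in a library but an FPKM of 13.1 to 29.5. Rpl30 had 6 to 17 counts at an FPKM of 14.6 to 27.4, and Rpl34 49 to 76 counts at 54.3 to 77.0. Rps27 had 44 to 141 counts at an FPKM of 63.8 to 296. The median member had 13.2 counts for each FPKM unit, and these 4 had 0.0148 to 0.986. Rps15a stood apart in the other direction, with 1554 to 2133 counts at an FPKM of 10.0 to 16.1. Many members have processed pseudogenes, and a median of 82.6% of the 75-base stretches of a member's coding sequence occurred elsewhere in the mm9 genome. This share was 75.5% for Rpl26, 72.6% for Rpl30, 60.0% for Rpl34 and 100% for Rps27, but it was also 100% for Rps29 and Rpl38, which were well counted. Its part in the low counts was not tested, and the counts of these members, and the FPKM of Rps15a, are uncertain.

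**Figure D2:**
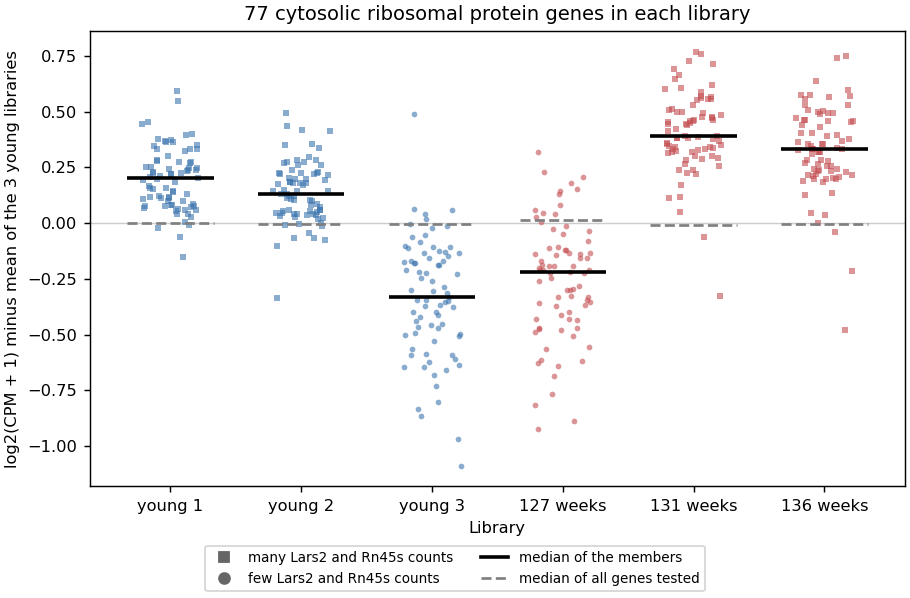
Each point is 1 of 77 members in 1 library, as log2(CPM + 1) minus the mean of the young libraries, with the black line at their median and the dashed line at the median of all 14612 genes tested. Members lay low in young 3 (median -0.33) and 127 weeks (-0.22) and highest at 131 weeks (0.39) and 136 weeks (0.33).

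The levels differed first of all between the library clusters. Of the 81 members, 77 passed the filter of 0.5 CPM in at least 1 library, and Rpl26, Rpl10l, Rpl39l and Rpl3l did not. In the libraries with few Lars2 and Rn45s counts, 75 of the 77 lay below the libraries with many, against 51.3% of all genes tested, and the median difference in log2(CPM + 1) was -0.53 (all genes, -0.01). The members lay lower in both ages for 71 of 77, against 34.8% of genes. The median was -0.49 among young and -0.58 among aged libraries. Young 3 was the lowest of the 6 libraries for 53 members, and 127 weeks for 17. The clusters were read from the libraries themselves, so these differences are given without a test.

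The largest cluster differences were those of short members, but not every short member had one: in log2(CPM + 1), Rps27 was at 0.59, Rpl34 at -0.01, Rpl30 at -0.31 and Rpl41, the member with the shortest protein, at -0.32. Rpl38, a protein of the large subunit tied to the translation of Hox mRNAs in embryos, stood at 55.9, 52.2 and 16.7 CPM in young 1, 2 and 3, and at 20.4, 58.2 and 62.1 CPM at 127, 131 and 136 weeks. Young 3 and 127 weeks were low, and the ages overlapped. Rps29 behaved alike, at 244, 223 and 84.6 CPM in young and 87.2, 277 and 245 CPM in aged ECs. The difference in log2(CPM + 1) was -1.57 for Rpl38, -1.51 for Rps29, -1.26 for Rpl39 and -1.21 for Rps25. In all, 6 members had a difference below -1, against 1.56% of genes. At the other end, Rps27, one of the members with uncertain counts, lay higher in the libraries with few Lars2 and Rn45s counts (0.59), and Rpl4 (0.02), Rpl34 (-0.01), Rpl14 (-0.01), Rpsa (-0.03), Rpl29 (-0.04), Rps3 (-0.06) and Rpl3 (-0.09) were within 0.1 of 0.

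**Figure D3:**
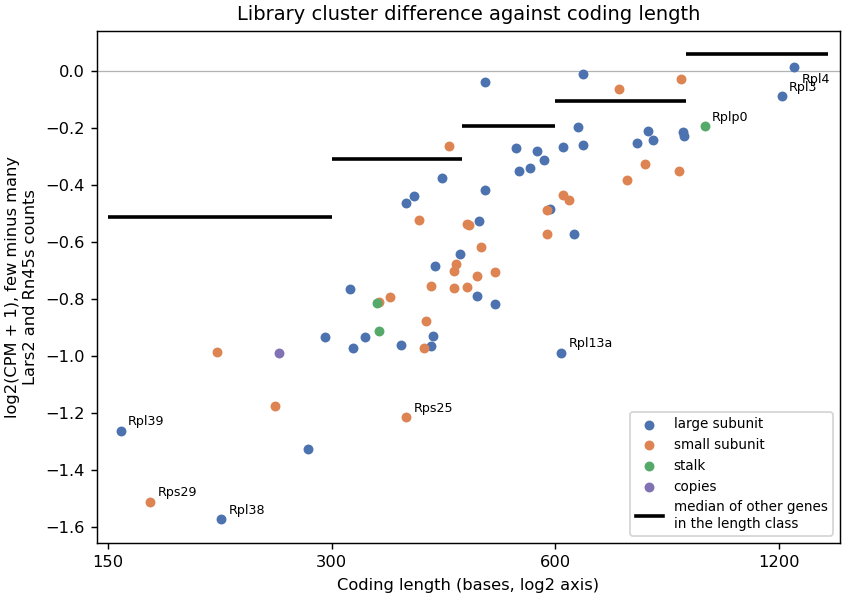
Difference in log2(CPM + 1) between libraries with few and with many Lars2 and Rn45s counts against coding length in bases (log2 axis), for 72 members with a mean CPM of at least 10, colored by subunit. Black lines give the medians of other genes in 5 length classes, and both run from strongly negative in short genes to near 0 in long ones.

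Across 72 members with a mean of at least 10 CPM, the cluster difference followed coding length (Spearman's rho, 0.83, across genes that share the same 6 libraries and are not replicates). The short exceptions named above were not among them: Rps27, Rpl34 and Rpl30 fell under 10 CPM, and the coding length of Rpl41 was not used here. The rho and the medians by length therefore leave them out. The median difference was -1.22 for the 8 members under 300 bases, -0.78 for 24 of 300 to 449 bases, -0.53 for 19 of 450 to 599 bases, -0.26 for 18 of 600 to 899 bases and -0.09 for 3 longer ones. Rpl13a, which is phosphorylated and released from the ribosome in the interferon-gamma response, was lower than its length class, at -0.99. In other genes the order was the same but the differences were smaller, at -0.51 for 138 genes under 300 bases and 0.06 for 6127 genes of 900 bases and over. The age difference did not follow length in this way (rho, 0.15, across the same 72 members). What sets the clusters apart was not given in the sources used here, and its part in the members' levels was not tested.

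**Figure D4:**
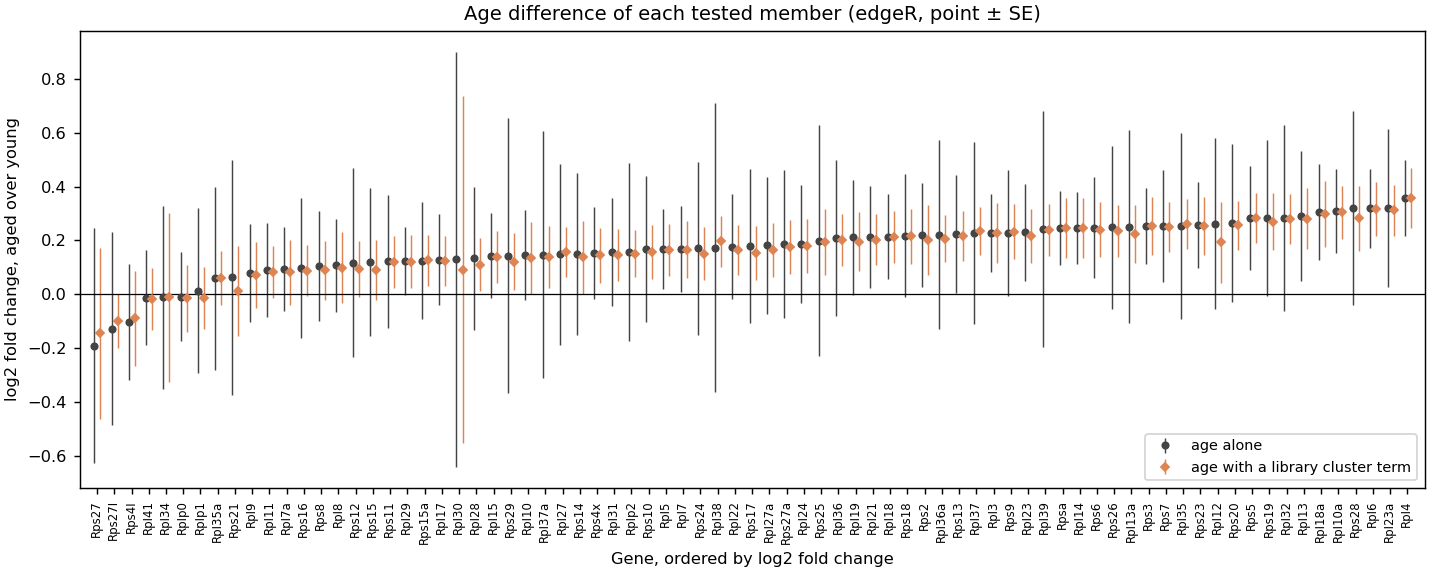
log2 fold change of aged over young ECs for each of the 77 tested members, ordered by size, with bars of 1 SE, from edgeR with age alone (dark circles) and with a term for the library cluster (orange diamonds). Estimates run from -0.19 for Rps27 to 0.36 for Rpl4, and the bars are mostly shorter with the cluster term.

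The age comparison asked whether members differ between young and aged ECs. No member passed an adjusted p of 0.05 in edgeR's quasi-likelihood test (adjusted p, 0.369 to 0.995), nor did any of the 14612 genes (0% called in either direction). DESeq2 called 639 genes at an adjusted p of 0.05 and limma-voom with sample quality weights 15, and neither called a member. At an unadjusted p below 0.05, edgeR gave 1 member higher in aged ECs (1.3% of 77, against 8.32% of all genes) and 0 lower (against 4.32%). In FPKM, limma gave 1 of 78 higher (against 6.31%) and 0 lower (against 4.96%).

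The estimates themselves were mostly above 0 and small. The log2 fold change was above 0 for 71 of 77 members (all genes, 51.1%), with a median of 0.18, that is a 1.13-fold level in aged ECs, where the median of all genes was 0.0098. The spread between libraries was larger than this median: the members' median in a library, relative to the young mean, was 0.20, 0.13 and -0.33 in young 1, 2 and 3 and -0.22, 0.39 and 0.33 at 127, 131 and 136 weeks (SD within an age, 0.31). Ages overlapped in these medians. The size of the shift changed when single libraries were left out. Each such fit also leaves the library clusters unequal between the ages, and values within the clusters follow below. Without young 3 the median was 0.04 and 47 members had a log2 fold change above 0, and without the 131-week library the values were 0.07 and 58. Without the 136-week library the median was 0.11, without young 1 it was 0.28, and without the 127-week library it was 0.38. With limma-voom and sample quality weights the median was 0.01 and 39 of 77 members lay above 0.

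Within the library clusters the aged libraries still lay above the young ones for most members. In the cluster with many such counts, the median difference in log2(CPM + 1) was 0.21, and both aged libraries lay above both young libraries for 62 of 77 members, against 23.3% of genes. Between the single libraries of the other cluster, 127 weeks and young 3, it was 0.09, with 58 of 77 members higher at 127 weeks (50.4% of genes). For 55 members the difference was above 0 in both clusters, against 34.1% of genes, and for 1 member, Rps27, it was below 0 in both. With a term for the cluster in edgeR, the median log2 fold change was 0.17 and the median SE was 0.10, compared with 0.23 for age alone. In that fit 13 of 77 members (16.9%) were higher at an unadjusted p below 0.05, against 10.2% of genes, and 0 were lower, against 6.58%. The smallest adjusted p of a member was 0.248, and 0 members were called at an adjusted p below 0.05, against 0.00684% of genes in each direction.

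**Figure D5:**
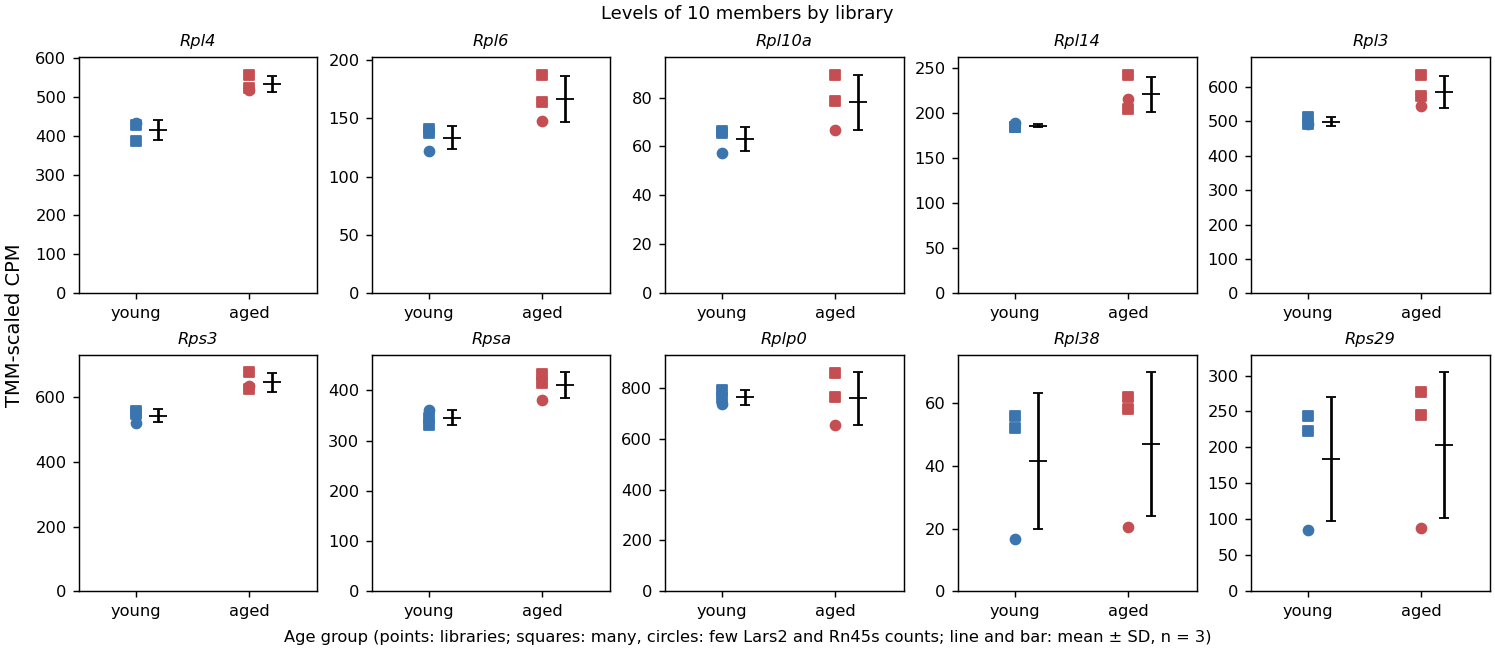
TMM-scaled CPM of 10 members in each library (squares, many; circles, few Lars2 and Rn45s counts), with mean ± SD of 3 libraries an age. In Rpl4, Rpl6, Rpl10a, Rpl14, Rpl3, Rps3 and Rpsa all aged libraries lie above all young ones, whereas in Rplp0, Rpl38 and Rps29 the ages overlap.

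In 7 members every aged library lay above every young library (9.09% of 77, against 9.62% of all genes), and in 0 every aged library lay below (against 8.33%). These shares are near or under the background. All 7 are among the 21 tested members with a coding sequence of at least 600 bases, the length at which the library clusters differed least. Since each age held 1 library with few Lars2 and Rn45s counts, a member with a large cluster difference could hardly be free of overlap. Their length is therefore not a separate result. Rpl4, a large subunit protein of the peptide exit tunnel, stood at 428, 387 and 433 CPM in young 1, 2 and 3 and at 518, 557 and 522 CPM at 127, 131 and 136 weeks. Its log2 fold change was 0.36 (SE 0.14), the largest of all members, with an unadjusted p of 0.0377 and an adjusted p of 0.369 in edgeR. With the cluster term it was 0.36 (SE 0.11).

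Rpl6, a large subunit protein, stood at 141, 137 and 122 CPM in young and 148, 164 and 187 CPM in aged libraries, in the same order. Its highest young and lowest aged value were close, and the log2 fold change was 0.32 (SE 0.15, edgeR adjusted p = 0.428). Rpl10a, which forms the stalk beside the tRNA exit site and marks a subset of ribosomes with its own mRNA preferences, stood at 65.6, 66.2 and 57.4 CPM in young and 66.7, 78.4 and 89.2 CPM in aged ECs. The 127-week library was within 1 CPM of young 2, and the log2 fold change was 0.31 (SE 0.15, edgeR adjusted p = 0.466). Rpl14 was very even in young ECs, at 186 ± 2.04 CPM, and stood at 221 ± 19.8 CPM in aged ECs (mean ± SD, n = 3 each), with a log2 fold change of 0.25 (SE 0.13). Rpl3, which forms part of the peptidyl transferase region, stood at 499 ± 12.04 and 584 ± 46.2 CPM in young and aged ECs (mean ± SD, n = 3 each), with a log2 fold change of 0.23 (SE 0.14).

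Among small subunit proteins, Rps3, which also has roles in DNA repair and NF-kB signaling, stood at 558, 550 and 519.5 CPM in young and 635, 678 and 625 CPM in aged ECs. The log2 fold change was 0.25 (SE 0.14, edgeR adjusted p = 0.522). Rpsa, known also as the laminin receptor, stood at 331, 345 and 361 CPM in young and 382, 433 and 416 CPM in aged ECs, with a log2 fold change of 0.25 (SE 0.14, edgeR adjusted p = 0.523). None of these differences passed the test. Rps6, the classical substrate of the mTORC1-driven S6 kinases, had a log2 fold change of 0.25 (SE 0.19), and Rps19 and Rps26, both mutated in Diamond-Blackfan anemia, had 0.28 (SE 0.29) and 0.25 (SE 0.30). Rps25, used by some viral internal ribosome entry sites, had 0.20 (SE 0.43), and Rps14 had 0.15 (SE 0.30). Rps27a, made as a fusion with ubiquitin, had 0.19 (SE 0.27). For these 6 the ages overlapped, with 127 weeks and young 3 low. As a group the 30 small subunit members had 29 estimates above 0 and a median of 0.19, and the 42 tested large subunit members had 40 above 0 and a median of 0.18.

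The largest estimates after Rpl4 were those of Rpl23a (0.32, SE 0.29), Rpl6 and Rps28 (0.32, SE 0.36), but for Rpl23a and Rps28 the SE was about as large as the estimate. Rpl23a, which lies at the exit of the tunnel, stood at 189, 175 and 108 CPM in young and 129, 233 and 228 CPM in aged ECs. Both groups held 1 low library, and within the clusters the differences in log2(CPM + 1) were 0.34 (many) and 0.25 (few). With the cluster term its log2 fold change was 0.31 (SE 0.09, unadjusted p = 0.0174, adjusted p = 0.248 in edgeR), the smallest p of the members in that fit. The p53-linked pair Rpl5 and Rpl11 had log2 fold changes of 0.17 (SE 0.15) and 0.09 (SE 0.17), and Rpl13a had 0.25 (SE 0.36).

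The stalk proteins, which recruit the GTPase translation factors to the ribosome, had log2 fold changes from -0.0084 to 0.16. Rplp0, the base of the stalk, was at 794, 761 and 736 CPM in young and 654, 860 and 763 CPM in aged ECs. The aged libraries enclosed the young ones, and the log2 fold change was -0.0084 (SE 0.17, edgeR adjusted p = 0.990). It was above 0 at library totals (0.05) and at upper-quartile factors (0.0029). Rplp1 and Rplp2, which bind to it as dimers, had 0.01 (SE 0.31) and 0.16 (SE 0.33). With the cluster term Rplp1 turned to -0.01 (SE 0.11).

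Only 6 of the 77 members had a log2 fold change below 0, and each estimate was smaller than its SE. Rps27 had -0.19 (SE 0.44), and its copy Rps27l, whose sequence is set beside it above, had -0.13 (SE 0.36). Rps4l had -0.10 (SE 0.21), whereas its partner Rps4x had 0.15 (SE 0.17). The remaining values were -0.0117 for Rpl41 (SE 0.18), -0.0111 for Rpl34 (SE 0.34) and that of Rplp0. At library totals alone Rpl41 and Rpl34 were above 0 (0.04 and 0.06). Rps27l stood at 73.9, 72.6 and 33.8 CPM in young and 34.9, 68.3 and 62.0 CPM in aged ECs, so that 127 weeks was close to young 3 and the other aged libraries lay under the other young ones. In FPKM, Rps27 had 296, 284 and 186 in young and 63.8, 253 and 71.5 in aged ECs, with 127 and 136 weeks low. The log2(FPKM + 1) difference was -1.24 (limma, unadjusted p = 0.0514). The counts of the same gene did not show the low 136-week and 127-week values together, at 2.49, 2.08 and 4.45 CPM in young and 3.40, 2.72 and 1.79 CPM in aged ECs.

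Of 7 ribosomal genes outside the symbol rule, 5 had a log2 fold change above 0 (all genes, 51.1%), with a median of 0.10. Rpl22l1, a counterpart of Rpl22, had 0.43 (SE 0.17, edgeR unadjusted p = 0.0359, adjusted p = 0.368), at 20.2 ± 2.61 CPM in young and 27.1 ± 1.65 CPM in aged ECs (mean ± SD, n = 3 each). Rpl7l1 had -0.27 (SE 0.19). Fau, a fusion of a ribosomal protein with a ubiquitin-like protein, had 0.18 (SE 0.24). Each of the 7 lay lower in the libraries with few Lars2 and Rn45s counts, with a median difference of -0.58.

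A list of other genes assigned to the TOP class had 17 of 18 estimates above 0 (all genes, 51.1%) and a median log2 fold change of 0.18. It holds elongation factors, some initiation factors and other genes, among them Npm1, Vim and Gas5. Eef1a1, which delivers aminoacyl-tRNA to the ribosome, had 0.22 (SE 0.18), and Pabpc1, the poly(A)-binding protein, had 0.32 (SE 0.15, edgeR adjusted p = 0.438). Tpt1 had -0.03 (SE 0.27), and 0.01 at library totals. These genes differed less between the clusters, with a median of -0.10. None of the 18 had an unadjusted p below 0.05 in edgeR, against 8.32% of all genes higher and 4.32% lower.

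Translation initiation factors had 24 of 35 estimates above 0 (all genes, 51.1%) and a median of 0.10. Eif4b, Eif3e, Eif3f and Eif3h were also in the TOP list, so the lists are not separate. Eif1a, a factor of start site selection, stood at 67.2 ± 6.69 CPM in young and 129 ± 36.1 CPM in aged ECs (mean ± SD, n = 3 each). Its log2 fold change was 0.94 (SE 0.22, unadjusted p = 0.00318, adjusted p = 0.235 in edgeR), and Eif2b5 had -0.17 (SE 0.13). Eif1a was the only 1 of the 35 with an unadjusted p below 0.05, against 8.32% of all genes higher and 4.32% lower. Components and effectors of mTORC1 and TOP mRNA control had 7 of 16 above 0 and a median of -0.09. Eif4ebp2, an inhibitor of cap-dependent initiation, had -0.77 (SE 0.30, unadjusted p = 0.0342, adjusted p = 0.364 in edgeR) and Tia1 had 0.42 (SE 0.19). Ribosomal protein chaperones had 6 of 8 above 0, with 0.41 (SE 0.19) for Ltv1 and -0.47 (SE 0.20, unadjusted p = 0.0491, adjusted p = 0.393 in edgeR) for Pdcd2. Mitochondrial ribosomal protein genes, which serve the translation of mitochondrial DNA, had 14 of 77 estimates above 0 and 63 below, with a median of -0.09. Mrps28 had 0.39 (SE 0.26) and Mrps25 had -0.44 (SE 0.17, unadjusted p = 0.0393, adjusted p = 0.371 in edgeR). No gene of these lists passed the adjusted threshold in edgeR.

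Markers of the cell types that the sort could hold were summed in each library. Summed leukocyte markers were 35.7 to 77.0 CPM in young ECs and 184, 30.6 and 495 CPM at 127, 131 and 136 weeks, with all 12 tested markers above 0 in log2 fold change. Ptprc, which encodes CD45, was at 1.17 to 1.70 CPM in young and 7.56, 1.28 and 25.6 CPM in aged ECs. The 131-week library had the lowest leukocyte sum of all 6 and also the highest value of 53 of the 77 members. The 136-week library had the highest leukocyte sum and the highest value of 21 members. Summed liver endothelial markers were 22109 to 24462 CPM in young and 11810 to 17498 CPM in aged ECs, with 8 of 10 below 0. Hepatocyte markers summed to 242 to 315 CPM in young and 190 to 318 CPM in aged, stellate and mural markers to 115 to 378 and 200 to 664 CPM, erythroid markers to 4.38 to 10.2 and 2.76 to 12.1 CPM, and cycling markers to 22.4 to 60.8 and 11.7 to 46.4 CPM. All 6 stellate and mural markers were lower in the libraries with few Lars2 and Rn45s counts when averaged over both ages. Their sums were 378, 320 and 115 CPM in young 1, 2 and 3 and 437, 200 and 664 CPM at 127, 131 and 136 weeks. The 127-week sum thus lay above that at 131 weeks. The part of these cells in the members' levels was not tested beyond these values.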

How the data were processed

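Sequencing covered 3 libraries of sorted liver ECs from young and 3 from aged mice. The authors used CASAVA 1.8.2 for base calls, aligned single-end 75-base reads to mm9 with TopHat2 2.1.0 and deposited raw read counts for 24421 symbols. They also deposited FPKM values from Cuffnorm 2.2.1 for 24346 symbols. The counting program, annotation and strand setting are not given in the sources used here, so overlapping genes and near-identical copies are uncertain. The 14612 genes that reached 0.5 CPM in 1 or more libraries were scaled by TMM and tested with the quasi-likelihood test of edgeR 4.0.16 (R 4.3.3), with Benjamini-Hochberg adjustment over all genes. A call needed a log2 fold change beyond 1 at an adjusted p under 0.05. SE was the log2 fold change over the square root of F. FPKM was tested with limma 3.58.1 on log2(FPKM + 1), for 13658 genes with at least 0.5 FPKM in 1 library. DESeq2 1.42.0 was an alternative. Libraries with 3% or more of their counts on Lars2 and Rn45s were called "many", the others "few". Coding length came from 1 GENCODE transcript a gene. Floors (3 counts) cover counting error only, since reads carry no molecular identifiers. The labels do not say that libraries came from separate mice beyond their ages, so p-values measure the spread between libraries.

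Members, lists and the library clusters were chosen with earlier results of these data known. Named were the stalk genes and Rpsa, copies with their partners, 12 members with known roles outside or within the ribosome, the 5 highest and 5 lowest log2 fold changes, the 5 highest and 3 lowest FPKM, the members whose ages did not overlap (up to 10) and, in each pathway list, the gene of smallest p in each direction. Others were named after their values were seen (Rpl26, Rpl29, Rpl30, Rps15a, Fau, Eef1a1 and Ptprc). The values of a further gene, which is included in the counts and median of its list, and a coding sequence are not reported here.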

Additional observations from a re-analysis of the deposited data

How the results depend on the processing

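No paired analysis was possible because the aged libraries carry ages and no replicate number, so that no library of one age belongs to one of the other. The members' median log2 fold change stayed above 0 under all 24 alternatives (0.01 to 0.23 over the fits that kept all libraries or dropped both with few Lars2 and Rn45s counts, 0.04 to 0.38 when single libraries were left out). The spread between libraries was 0.31, which the median exceeded without the 127-week library (0.38). The number of members above 0 was 39 with limma-voom and sample quality weights, and 47 to 76 without single libraries. Members without the copies had a median of 0.18. Members with at most 50% of their coding stretches elsewhere in the genome had 0.16 (15 of 17 above 0), and those with more had 0.19 (56 of 58).

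Members higher at an unadjusted p below 0.05 in edgeR numbered 13 with the cluster term (16.9%, against 10.2% of genes). They numbered 4 at library totals, 0 with no filter and 0 to 3 without single libraries. Without both libraries with few Lars2 and Rn45s counts, an alternative chosen after seeing the data, they numbered 4. The share of all genes was not computed for these other fits, so their numbers are no result about the members. In the main fit it was 8.32%, against 1.3% of members. With limma on log2(FPKM + 0.1), 1 member was lower. Genes called, higher and lower, numbered 395 and 79 with the DESeq2 Wald test, 13 and 2 with limma-voom, 3 and 1 with no filter, 1 and 1 with the cluster term, and 1 and 0 with either FPKM fit, and 0 to 1 were higher and 0 lower without single libraries. No member was called under any of them. The cause of these differences was not tested.

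Of 855 values of 45 named genes under the alternative fits, 794 kept their direction and 61 turned, none of the latter with an adjusted p under the threshold. The log2 fold changes that turned at library totals were Rpl34 0.057, Rpl41 0.044, Rplp0 0.047, Tpt1 0.015. At upper-quartile factors it was Rplp0 0.0029. With limma-voom and sample quality weights they were Rpl11 -0.00036, Rpl13a -0.0503, Rpl38 -0.33, Rpl39 -0.17, Rplp1 -0.23, Rplp2 -0.13, Rps14 -0.079, Rps25 -0.17, Rps26 -0.014, Rps27 0.15, Rps27a -0.027, Rps29 -0.32. With at least 1 CPM in 3 samples they were Rpl34 0.0027, Rpl41 0.0028, Rplp0 0.0062. For Rplp1 it was -0.026 and -0.026 on log2(FPKM + 1) and log2(FPKM + 0.1), and -0.015 with the cluster term. Without both libraries with few Lars2 and Rn45s counts they were Rpl41 0.0098, Rplp0 0.059, Tpt1 0.0059. Without single libraries, the ranges that crossed 0 were Rpl34 from -0.10 to 0.12, Rpl41 from -0.15 to 0.10, Rplp0 from -0.11 to 0.092, Rps27l from -0.41 to 0.12, Rps4l from -0.30 to 0.032, Tpt1 from -0.22 to 0.18, Rpl38 from -0.20 to 0.54, Rpl39 from -0.069 to 0.57, Rplp1 from -0.20 to 0.27, Rplp2 from -0.083 to 0.42, Rps14 from -0.11 to 0.38, Rps25 from -0.10 to 0.51, Rps27 from -0.41 to 0.21, Rps27a from -0.0062 to 0.40, Rps29 from -0.20 to 0.51. The single named gene that passed the adjusted threshold in any alternative was Eif1a, with the DESeq2 Wald test (0.93, adjusted p = 0.0120).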
